A study of Mus musculus with 12 samples.

Results

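Among the 12 RNA-seq libraries of this series of mouse 8-cell embryos, 7 came from embryos depleted of Nr5a2: 3 labelled Nr5a2 KD and 4 labelled Nr5a2 and Klf5 double KD (dKD). These 7 libraries fell into 2 classes by mitochondrial share, which is the percent of all gene counts of a library that lay on the 37 genes of the mitochondrial genome. The 3 low-share libraries, below 8%, were Nr5a2 KD replicate 3 and dKD replicates 3 and 4. The 4 high-share libraries, above 10%, were Nr5a2 KD replicates 1 and 2 and dKD replicates 1 and 2. Each class therefore held libraries of both treatments, and the comparison set low-share against high-share libraries with the treatment held as a term. The classes were chosen by the share itself, so it and the mitochondrial genes are given as a description, without a test. The maternal, zygotic and metabolic genes of the nucleus were tested relative to the bulk of nuclear RNA. The choice used nuclear counts only as a sum, in the denominator of the share.

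Each library was made from a pool of 10 embryos from superovulated B6129F1 females of 3 to 5 weeks mated with B6CBAF1 males. Zygotes had been microinjected at 8 to 9 h post fertilisation with siRNA, a short duplex RNA that directs the cleavage of a matching mRNA, together with H2B-EGFP as an injection marker. The injected embryos of all groups were cultured in vitro in the embryo medium KSOM under 5% oxygen. The siRNA was given at 5 µM against Nr5a2, at 10 µM against Klf5 and at 15 µM for the non-targeting control, and the dKD embryos received both targeting siRNAs, at concentrations not given separately in the sources used here. All groups thus carried an injection, and an siRNA lowers a transcript in the pool without removing the gene. The remaining 5 libraries, 3 of Klf5 KD and 2 of control embryos, took no part in the main comparison and are given beside it.

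NR5A2 is a nuclear receptor that binds DNA as a monomer, and KLF5 is a zinc finger transcription factor with roles in early lineage choice. The cleaving embryo inherits its mitochondria and a large store of mRNA from the oocyte, degrades that store while its own genome becomes active, and lives mainly on pyruvate and oxidative phosphorylation until glucose use increases around compaction. The mitochondrial genome encodes a small set of respiratory chain subunits with the ribosomal and transfer RNAs needed to translate them, and every other mitochondrial protein is made from a nuclear gene.

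The mitochondrial share was 6.18% in Nr5a2 KD replicate 3, 6.75% in dKD replicate 3 and 6.17% in dKD replicate 4, with a mean of 6.37 ± 0.330% (SD, n = 3). It was 10.4 and 12.5% in Nr5a2 KD replicates 1 and 2 and 12.8 and 12.6% in dKD replicates 1 and 2, with a mean of 12.1 ± 1.14% (SD, n = 4). The library nearest the boundary from below, dKD replicate 3, lay 3.61 percentage points under the nearest from above, Nr5a2 KD replicate 1. The 2 control libraries were at 13.2 and 12.9%, close to the high-share class, and the 3 Klf5 KD libraries were spread from 4.41 to 11.8%. A low share was thus also seen in an embryo pool that had received no Nr5a2 siRNA. The replicate numbers follow the class, since every library numbered 1 or 2 was high and every one numbered 3 or 4 was low. The library numbers in the file headers were 241, 242 and 243 for the low-share libraries and 231, 233, 235 and 237 for the high-share ones, so that within these 7 libraries any difference between collection or preparation rounds cannot be told apart from the class. In the 3 Klf5 KD libraries, numbered 232, 236 and 240, the share rose with the number, at 4.41, 8.28 and 11.8%. That order is opposite to the one in the 7 libraries. Library order and share therefore cannot be told apart within Klf5 KD either.

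**Figure D1:**
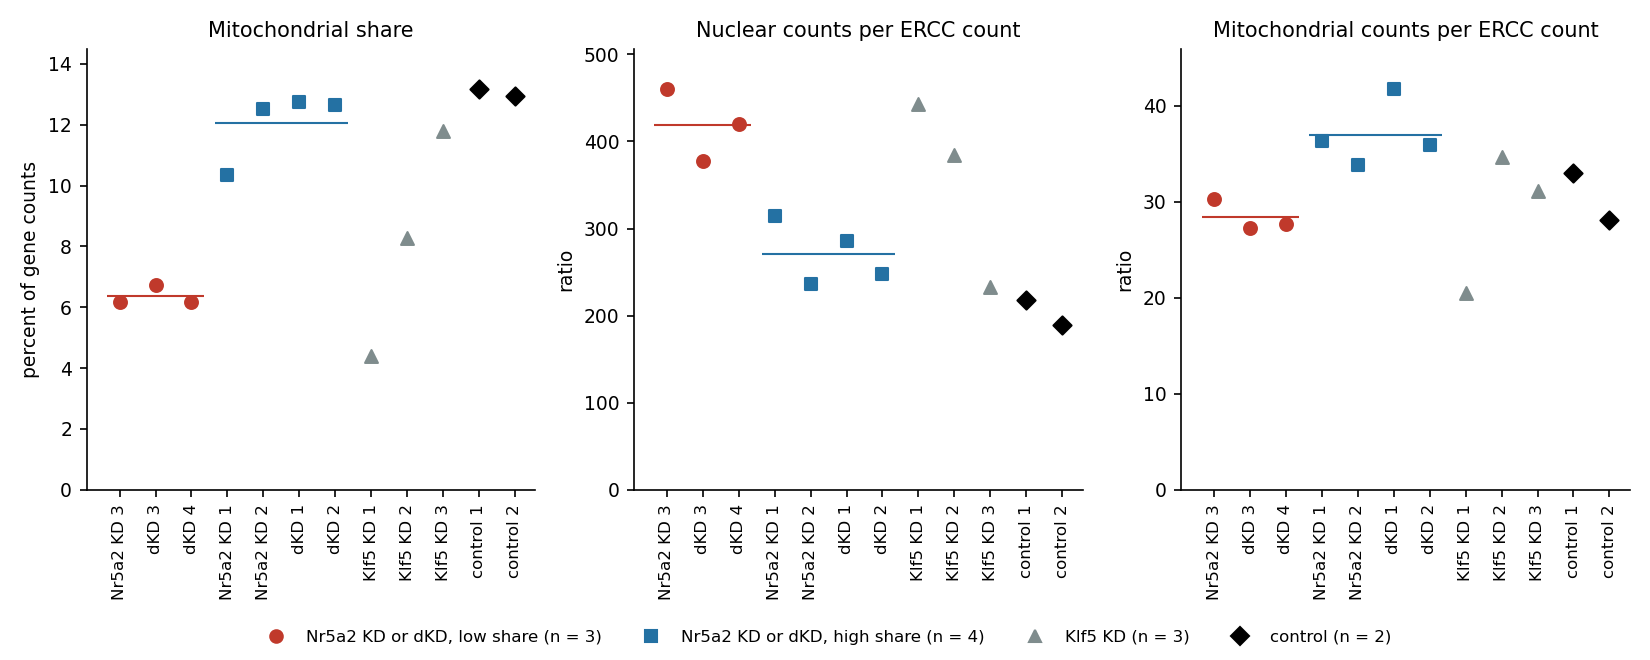
Mitochondrial share (percent of gene counts, left), nuclear counts per ERCC spike-in count (centre) and mitochondrial counts per ERCC count (right) in each of the 12 libraries, 1 point per library, with class means as lines. The 3 low-share libraries lie between 6.17 and 6.75% and the 4 high-share libraries between 10.4 and 12.8%, and the low-share libraries lie higher in nuclear counts per spike-in count.

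Because ERCC spike-in RNA had been added at lysis, the 2 parts of the share could be read separately. Nuclear counts per ERCC count were 377 to 459.9 in the low-share libraries (mean 419 ± 41.4, SD, n = 3) and 236 to 314 in the high-share ones (mean 271 ± 35.6, SD, n = 4), a ratio of 1.55. The classes did not overlap. Nuclear and mitochondrial counts both enter the share, so these values are part of what chose the classes and carry no test. Mitochondrial counts per ERCC count were 27.3 to 30.3 in the low-share and 33.8 to 41.7 in the high-share libraries, which puts the low-share mean at 77.0% of the high-share mean. The controls had 28.1 and 33.0 mitochondrial counts per ERCC count, below every high-share library and in 1 case within the low-share range, and 189 and 218 nuclear counts per ERCC count, below both classes. Between the classes, the lower share went with more nuclear counts per spike-in and with fewer mitochondrial counts per spike-in. In pooled embryos, fewer cells and less RNA per cell cannot be told apart, and the amount of spike-in that entered each tube was not measured independently.

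Total gene counts were 7155238 to 7959092 in the low-share and 6676683 to 8873766 in the high-share libraries, with overlapping ranges. Numbers of nuclear genes detected overlapped as well, at 19954 to 20517 against 20086 to 20335. Counts on the injected EGFP sequence ranged from 1.15 to 12.0 CPM (counts-per-million over nuclear genes, scaled by TMM) and did not separate the classes (6.70 ± 2.43 against 7.38 ± 5.04, two-sided exact permutation test, p = 0.857, where 3 against 4 libraries can give no p under 0.0571). All 8 markers of the 8-cell embryo were detected, with sums of 22250 to 28028 CPM in the low-share and 22365 to 32354 in the high-share libraries that were almost wholly Dppa3, itself a maternal transcript (21978 to 27789 and 22158 to 32128 CPM). Of the other 7 markers, Pou5f1, Tfap2c, Klf17, Krt8 and Krt18 overlapped between the classes. Zfp42 was at 58.6 to 73.9 CPM in the low-share and 35.1 to 45.8 CPM in the high-share libraries, and the cadherin gene Cdh1 lay the other way, at 24.3 to 27.6 against 28.6 to 44.1 CPM, and did not pass. Cumulus cell markers summed to at most 3.59 CPM with 8 of 12 at 0 in all 7 libraries, sperm markers to at most 3.21 with 3 of 8 at 0, and blood markers to 10.5 to 33.5 with 3 of 8 at 0. The labels do not say whether the replicates came from separate collections of embryos, so p-values measure the spread between these pools, which may be technical.

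The genes of the mitochondrial genome did not scale down by 1 common factor. mt-Cytb, the cytochrome b subunit of complex III, stood in the low-share libraries at 46.9% of its high-share level relative to all gene counts. mt-Nd4 and mt-Nd2, subunits of complex I, stood at 47.9 and 50%, whereas mt-Co1, the catalytic subunit of cytochrome c oxidase, stood at 66.3% and the small ribosomal RNA mt-Rnr1 at 65.7%. mt-Nd1, mt-Nd5 and the large ribosomal RNA mt-Rnr2 lay between, at 57.8, 57.3 and 56.8%. Measured against the ERCC counts, the same order ran from 68.7% for mt-Cytb to 96.8% for mt-Co1, so mt-Co1 and mt-Rnr1 (94.8%) were near their high-share level per spike-in and mt-Cytb was not. Within the mitochondrial counts, mt-Cytb made up 31.3 to 35.4% in the low-share libraries and 36.7 to 37.1% in the high-share ones, and mt-Co1 made up 6.18 to 6.57% against 4.91 to 5.39%. Neither range overlapped between the classes. The ribosomal RNAs were 22.6 ± 2.18% of mitochondrial counts in the low-share and 20.7 ± 0.703% in the high-share libraries. mt-Co2, mt-Atp8, mt-Atp6, mt-Co3, mt-Nd3 and mt-Nd4l had 8 to 877 counts each in any of the 12 libraries and are not read here. Reads with several genomic matches had not been counted. The heavy and light strand genes of this compact genome overlap, and the counting had no strand, so the value for mt-Nd6 (51.0%) may include reads of its neighbours.

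Across the nuclear genome, 12890 genes had enough counts to be tested. With edgeR's quasi-likelihood test and Benjamini-Hochberg adjustment, 995 genes (7.72%) were higher and 669 (5.19%) lower in the low-share libraries at an adjusted p under 0.05. At least 2-fold changes were found for 322 genes (2.5%) upward and 226 (1.75%) downward. The median log2 fold change of all tested genes was -0.02, and 48.6% were above 0. In 1793 genes (13.9%) all 3 low-share libraries lay above all 4 high-share ones, and in 1533 (11.9%) they lay below. The first principal component held 32.9% of the variance and separated the classes rather than the treatments, with scores of 33.8, 45.8 and 37.6 for the low-share and -19.1, -34.3, -31.1 and -32.7 for the high-share libraries. Whether the difference between the classes depended on treatment could not be settled. Nr5a2 KD replicate 3 alone makes up the low-share side of its treatment, so a test of the interaction is not read here.

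The numbers called depended on single libraries. Without Nr5a2 KD replicate 3, the only low-share library of its treatment, 421 genes were higher and 172 lower. Without dKD replicate 3 the counts were 631 and 358, and without dKD replicate 4 they were 690 and 311. Leaving out dKD replicate 1 gave 801 and 455, whereas leaving out Nr5a2 KD replicate 1 gave 1073 and 692. When the libraries were scaled to the ERCC counts in place of the nuclear counts, the median of all genes shifted to 0.60 and the calls became 4481 higher (34.8%) and 55 lower (0.427%). Nuclear counts per ERCC count are part of what chose the classes. Calls with ERCC scaling are therefore a description and not an independent test. All fold changes below are relative to the bulk of nuclear RNA, and a group described as lower is lower in that sense.

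Among the called genes with at least 5 CPM on average and no overlap between the classes, the largest falls were in genes of the oocyte store and in a few regulators. Siah2, an E3 ubiquitin ligase (chromosome 3 of GRCm38 from 58674938 to 58692400), was at 3.07, 7.26 and 5.11 CPM in the low-share libraries and at 23.5, 32.2, 23.6 and 41.5 in the high-share ones (log2 fold change -2.64, SE 0.30, adjusted p = 0.000305 by edgeR). The rule required that the classes did not overlap. The control libraries, at 22.1 and 48.9 CPM, lay with the high-share class. The next largest falls were in Obox5, Oosp1 and Omt2b, described with the maternal genes, in the replication-dependent histone gene Hist1h2ae (-2.07, adjusted p = 0.000715 by edgeR), in the transcriptional corepressor Nab1 (-1.99) and in Heca (-1.97, adjusted p = 0.00504 by edgeR). Nab1 passed in the comparison of all 7 libraries but not without Nr5a2 KD replicate 2 (-1.96), Nr5a2 KD replicate 3 (-2.39), dKD replicate 2 (-1.37), dKD replicate 3 (-1.5) or dKD replicate 4 (-2.44).

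By the same rule the largest rises were in Zfp971, a zinc finger gene (2.13, adjusted p = 0.00491 by edgeR), in Cnp, a cyclic nucleotide phosphodiesterase found on membranes, and in Usp17lb, a deubiquitinase gene of the 2-cell programme. Cnp was at 13.4, 9.77 and 14.4 CPM in the low-share and 4.62, 2.58, 2.51 and 2.49 CPM in the high-share libraries (log2 fold change 2.11, SE 0.33, adjusted p = 0.00156 by edgeR). Bag2, a cochaperone that limits ubiquitination of HSP70 clients, was at 9.21, 7.00 and 9.83 against 3.46, 2.43, 1.96 and 1.71 CPM (log2 fold change 1.96, SE 0.36, adjusted p = 0.00382 by edgeR). Teddm2 (1.88), the noncoding RNA Particl (1.92), Mir8114 (1.99) and AC109138.6 (1.92) completed the 8 largest differences by the rule, and AC109138.6 did not pass without Nr5a2 KD replicate 3 (1.93). Several of these are not separate signals. All 111 bases of Mir8114 lie within the span of Teddm2, its counts were 68.4 to 90.9% of those of Teddm2 in the 7 libraries, and reads over both had been divided between them, so its value is not a measurement of a miRNA. AC109138.6 lies wholly within Ppp1ca, which was higher (1.24, adjusted p = 0.000586 by edgeR), and the spans of Cnp and Particl overlap those of Dnajc7 (1.29, adjusted p = 0.000628 by edgeR) and Mat2a (-0.29, not called). In all, 31 of the 127 named genes had a span that overlaps another tested gene, so that their reads may not be fully told apart.

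The siRNA targets were checked in every library. Nr5a2 was at 26.8, 37.9 and 28.0 CPM in the low-share and 35.8, 42.9, 31.6 and 34.2 CPM in the high-share libraries, against 247 and 233 in the controls and 136, 282 and 221 in Klf5 KD. All 7 libraries were below every library without the Nr5a2 siRNA, and the classes overlapped (log2 fold change -0.20, SE 0.20, adjusted p = 0.556 by edgeR). Residual Nr5a2 transcript therefore did not pass a test between the classes. Klf5 was at 121, 47.3 and 44.4 CPM in the low-share libraries, where the first value is Nr5a2 KD replicate 3, and at 164, 175, 90.8 and 65.8 CPM in the high-share ones, where the first pair is Nr5a2 KD. The controls had 487 and 517 CPM and Klf5 KD 84.6, 129 and 157 CPM. Within each treatment the low-share libraries had the lower values, and the class term passed (log2 fold change -0.64, SE 0.15, adjusted p = 0.0164 by edgeR). This call was lost without Nr5a2 KD replicate 3 (-0.75), dKD replicate 1 (-0.48), dKD replicate 3 (-0.62) or dKD replicate 4 (-0.58), and with ERCC scaling the log2 fold change was -0.02.

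Among genes of the maternal store, the called members were nearly all lower in the low-share libraries with nuclear scaling but not with ERCC scaling. Of 59 listed oocyte and maternal-effect genes 40 had enough counts to be tested, 11 were lower (27.5%, against 5.19% of all tested genes) and 1 was higher (2.5%, against 7.72%), and the median log2 fold change was -0.78 against -0.02 for all genes. Of the 19 left out, 1 had no matching symbol and the others had at most 23 counts in any of the 7 libraries. The number lower was 6 without Nr5a2 KD replicate 3, 4 without dKD replicate 3, 6 without dKD replicate 4, 7 without Nr5a2 KD replicate 2 or dKD replicate 2, and 8 without dKD replicate 1. With ERCC scaling the list median was -0.16, still below 0 where the median of all genes was 0.60, but 8 members were then higher (of all tested genes 34.8%) and 6 lower (of all 0.427%).

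Omt2b and Omt2a, oocyte maturation genes that are neighbours on chromosome 9, had the clearest values. Omt2b (chromosome 9 of GRCm38 from 78327589 to 78329620) was at 46.2, 54.1 and 39.0 CPM in the low-share and 235, 277, 131 and 268 CPM in the high-share libraries, 4.69-fold lower (log2 fold change -2.23, SE 0.24, adjusted p = 0.000248 by edgeR). Omt2a was at 29.6, 30.1 and 23.6 against 100.3, 143, 94.1 and 85.6 CPM (log2 fold change -1.84, SE 0.18, adjusted p = 0.000156 by edgeR). Every low-share library was below every other library of the series for both genes, the controls having 228 and 413 CPM of Omt2b and 127 and 198 CPM of Omt2a. The 2 genes are close copies, and because reads matching several places were left uncounted, the division of reads between them is uncertain.

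Oosp1, which encodes a secreted oocyte protein, was at 6.69, 7.13 and 7.60 CPM in the low-share libraries and 21.3, 29.8, 14.1 and 66.9 CPM in the high-share ones (log2 fold change -2.24, SE 0.42, adjusted p = 0.00424 by edgeR). The low-share values were tight, while dKD replicate 2 stood well above the rest of its class. Obox5 and Obox1, homeobox genes expressed in the oocyte, were lower, with log2 fold changes of -2.37 and -2.68 (adjusted p = 0.00119 and 0.0194 by edgeR), with Obox5 at 2.51, 3.57 and 3.14 against 11.9, 24.2, 18.9 and 10.7 CPM. The Obox family has many near-identical copies, so its values carry the same uncertainty. Btg4, an adaptor that brings the deadenylase CCR4-NOT to maternal mRNAs, was lower as well (-1.76, adjusted p = 0.0133 by edgeR), at 6.28, 2.51 and 4.45 against 11.4, 40.6, 11.3 and 9.65 CPM, with Nr5a2 KD replicate 2 far above the rest of its class. Zfp36l2, an AU-rich element binding protein that promotes mRNA decay, was at 3.07, 2.11 and 1.70 against 4.10, 4.41, 7.82 and 13.2 CPM (-1.63, adjusted p = 0.0316 by edgeR). The remaining lower members were Zbed3, a component of the subcortical maternal complex (-1.56), the chromatin reader Spin1 (-0.70), Oog3 (-1.57) and Oas1d (-1.49).

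The single higher member was Aurkc, a kinase of meiotic spindle assembly, at 62.6, 126 and 63.2 against 46.8, 36.6, 42.0 and 34.5 CPM (log2 fold change 1.04, SE 0.24, adjusted p = 0.0138 by edgeR). It lost the call without dKD replicate 2 (0.90) or dKD replicate 3 (0.67). The other 28 tested members gave no call. Dppa3, which protects maternal methylation, was at a log2 fold change of 0.06, Nlrp5 of the subcortical complex at -0.13, and the oocyte growth factors Gdf9 and Bmp15 at -0.85 and -1.23 (SE 0.28 and 0.63). By role, 7 of 20 oocyte regulators were lower with a median of -1.0, 1 of 7 subcortical complex genes with a median of -0.71, and 1 of 6 zona and secreted genes with a median of -0.94. Genes of meiosis and RNA decay had a median of -0.06, with 2 of 7 lower and 1 higher.

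Genes of the 2-cell activation wave, the first large burst of zygotic transcription, gave few calls. Of 36 listed, 20 were tested, 1 was higher (5.0%, against 7.72% of all tested genes) and 0 were lower, with a median of 0.31 and 18 of 20 above 0. The median was 0.57 in the dKD libraries alone and -0.03 in the Nr5a2 KD libraries alone. With 1 low-share library in Nr5a2 KD, these values cannot show whether the treatments differ. The median was 0.070 without dKD replicate 3, 0.11 without dKD replicate 1, 0.52 without dKD replicate 2 and 0.58 without Nr5a2 KD replicate 3, and 2 members were higher without Nr5a2 KD replicate 1 or 2. The called member was Usp17lb, at 22.3, 27.3 and 20.7 CPM in the low-share and 7.70, 8.81, 3.21 and 5.91 CPM in the high-share libraries (log2 fold change 2.01, SE 0.30, adjusted p = 0.00101 by edgeR). All 3 low-share libraries were also above the controls (5.48 and 2.23 CPM) and above Klf5 KD (7.83, 1.04 and 0.320 CPM). Usp17l genes lie in a multicopy cluster, and reads shared between copies had not been counted.

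Among zygotic genes of the later lineages, 9 were called. Of 53 listed, 46 were tested, 4 were higher (8.7%, near the 7.72% of all tested genes) and 5 lower (10.9%, against 5.19%), with a median of -0.18. With ERCC scaling the median was 0.44, and 12 were higher and 0 lower. Of all tested genes 34.8% were then higher and 0.427% lower, with a median of 0.60. The number higher was 2 without Nr5a2 KD replicate 3, and the number lower was 3 without it, 2 without dKD replicate 3 and 3 without dKD replicate 4. Of the higher members 3 were pluripotency genes and 1 was a trophectoderm gene. Dppa4, a chromatin protein that with Dppa2 activates early zygotic genes, was at 854, 801 and 790.4 CPM against 524, 481, 435 and 534 CPM (log2 fold change 0.75, SE 0.13, adjusted p = 0.00205 by edgeR). The classes were separate, and the controls (530.2 and 483 CPM) lay with the high-share libraries. Dppa2 (0.60, adjusted p = 0.00524 by edgeR) and Zfp42, a zinc finger marker of the pluripotent state (0.73, adjusted p = 0.0101 by edgeR), were higher too but lost the call without Nr5a2 KD replicate 3 (0.58 and 0.61). Cldn7, a tight junction claudin, was at 148, 169 and 131 against 106, 100.1, 88.4 and 81.8 CPM (log2 fold change 0.71, SE 0.15, adjusted p = 0.00764 by edgeR).

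The lower members, besides Klf5, were genes of the trophectoderm, the outer epithelium of the blastocyst. Tspan8, a membrane tetraspanin, was at 21.6, 19.0 and 35.6 CPM in the low-share and 42.8, 47.1, 69.3 and 59.4 CPM in the high-share libraries (log2 fold change -1.15, SE 0.21, adjusted p = 0.00384 by edgeR). Tjp1, the tight junction scaffold ZO-1, was at 15.3, 16.6 and 27 against 36.8, 35.6, 47.1 and 41.2 CPM (log2 fold change -1.09, SE 0.21, adjusted p = 0.00466 by edgeR), without overlap, and was not called without Nr5a2 KD replicate 3 (-0.99). The water channel Aqp3 (-1.31, adjusted p = 0.0234 by edgeR) and the phosphate transporter Slc34a2 (-0.81, adjusted p = 0.024 by edgeR) were lower. Of the 24 trophectoderm genes 4 were lower and 1 higher (median -0.25), of 18 pluripotency genes 1 was lower and 3 higher (median 0.03), and none of 4 primitive endoderm genes was called by edgeR (median -0.19). Pou5f1, the pluripotency factor OCT4, was at 8.93, 8.72 and 11.4 against 11.0, 10.0, 9.22 and 6.85 CPM, and Nanog at 7.11, 2.11 and 1.18 against 4.75, 5.93, 8.94 and 5.60 CPM, both overlapping and not called. Tspan8 and Tjp1 did not pass with ERCC scaling (-0.51 and -0.46).

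**Figure D2:**
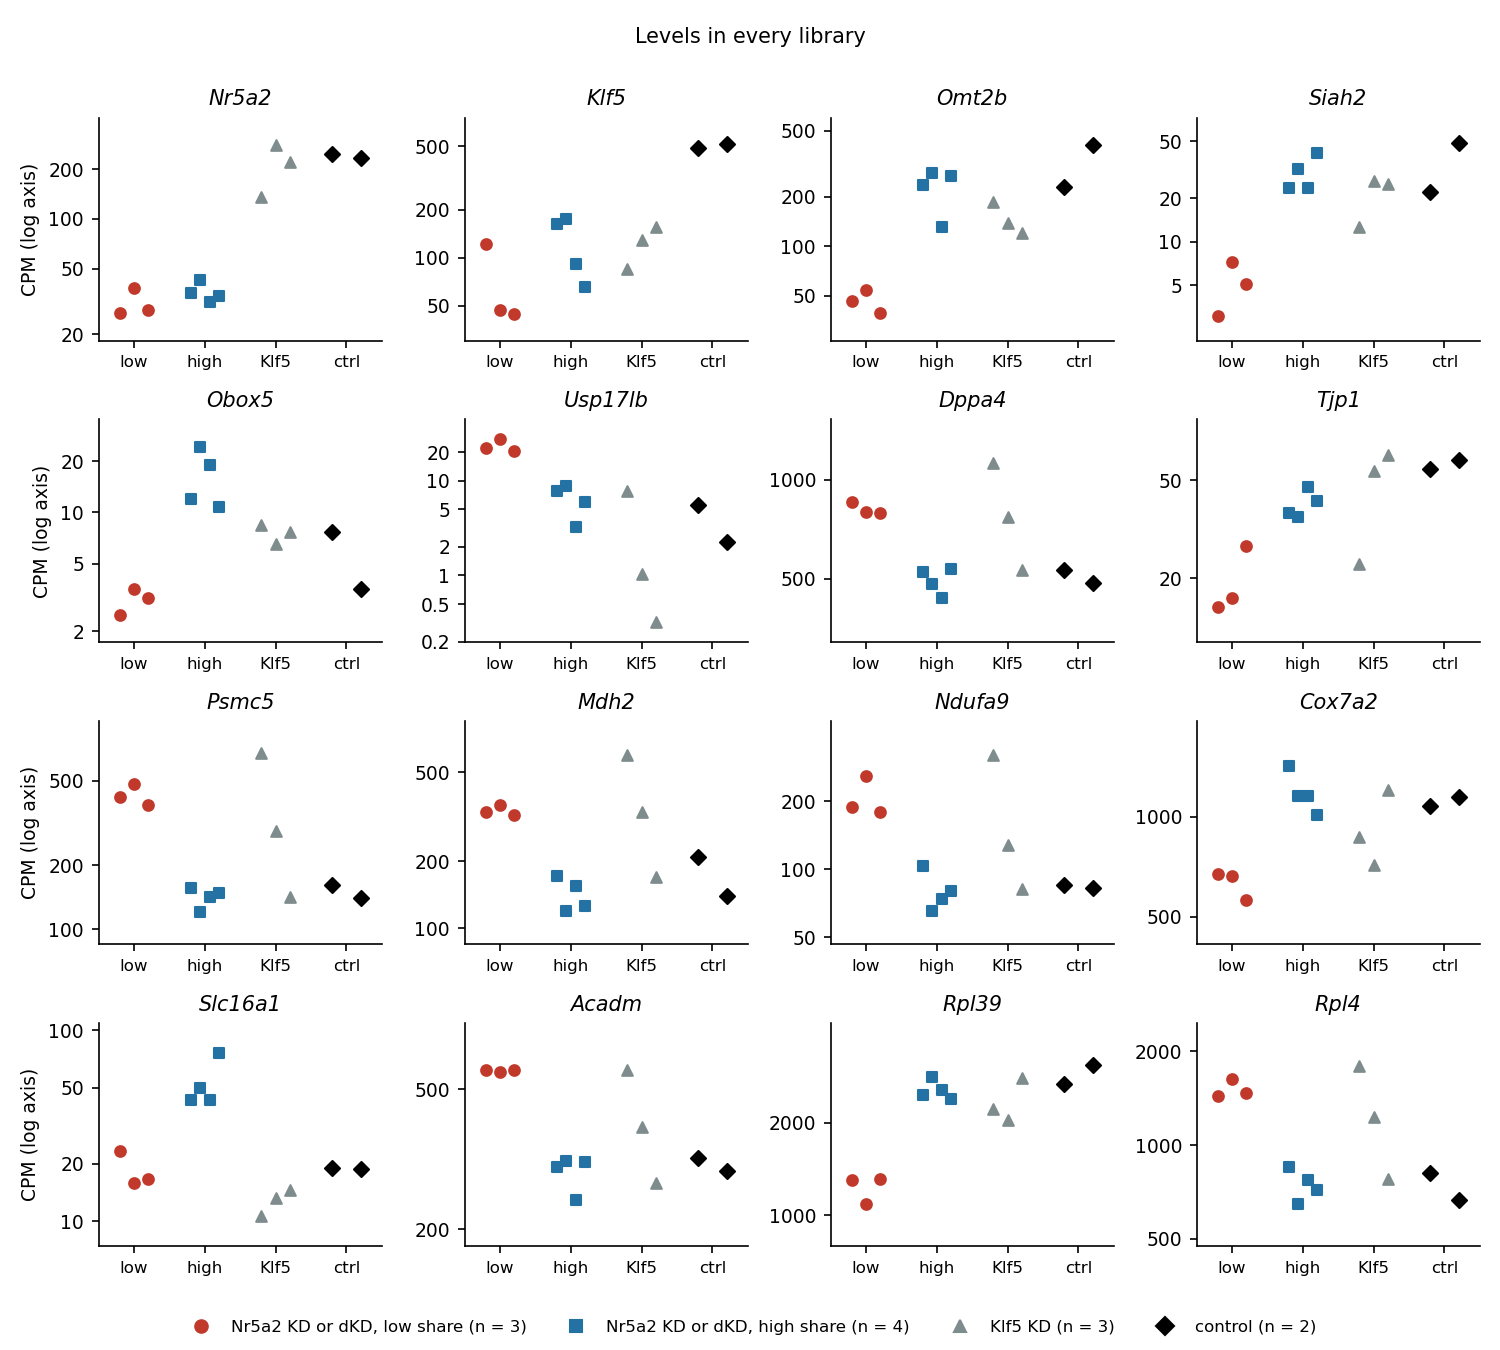
Level in CPM (log axis) of 16 genes, 1 panel per gene and 1 point per library, with low-share, high-share, Klf5 KD and control libraries in separate columns. The low-share points lie below all high-share points for Omt2b, Siah2, Obox5, Tjp1, Cox7a2, Slc16a1 and Rpl39, above them for Usp17lb, Dppa4, Psmc5, Mdh2, Ndufa9, Acadm and Rpl4, and overlap them for Nr5a2 and Klf5.

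Nuclear genes of oxidative phosphorylation were called in both directions with nuclear scaling. With ERCC scaling they were called upward, as were most genes called over the genome. All 77 listed genes were tested, 9 were higher (11.7%, against 7.72% of all tested genes) and 25 lower (32.5%, against 5.19%) in the low-share libraries, and the median was -0.26. With ERCC scaling 31 were higher and 0 lower, and the median was 0.34. Of all tested genes 34.8% were then higher and 0.427% lower, and their median of 0.60 was above that of the list. The median was -0.12 without dKD replicate 1, -0.14 without Nr5a2 KD replicate 1 and -0.15 without Nr5a2 KD replicate 3. Complex IV, the cytochrome c oxidase, had 7 of 11 lower and 1 higher (median -0.60). Complex I had 9 of 36 lower and 3 higher (median -0.19), complex III 4 of 9 lower and 3 higher (median -0.36), and the ATP synthase 5 of 16 lower and 1 higher (median -0.15). Of the 4 subunits of complex II, the succinate dehydrogenase, 1 was higher and 0 lower (median 0.57). The number lower was 5 without Nr5a2 KD replicate 3, 12 without dKD replicate 4 and 14 without dKD replicate 1, and the number higher was 18 without Nr5a2 KD replicate 1.

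Cox7b, a small subunit of complex IV, was at 101.95, 78.2 and 95.1 CPM in the low-share and 183, 224, 186 and 166 CPM in the high-share libraries (log2 fold change -1.0, SE 0.14, adjusted p = 0.000825 by edgeR). Cox7a2 (-0.86, adjusted p = 0.00165 by edgeR) and Ndufb2 of complex I (-0.87, adjusted p = 0.0016 by edgeR) were lower too, and all 3 missed the threshold with ERCC scaling (-0.37, -0.25 and -0.26). Other subunits were higher. Ndufa9, an accessory subunit of complex I, was at 189, 259 and 179 CPM in the low-share libraries and 104, 65.3, 73.5 and 79.7 CPM in the high-share ones (log2 fold change 1.39, SE 0.19, adjusted p = 0.000692 by edgeR). Ndufa10 was at 80.8, 75.5 and 77.3 against 33.5, 28.3, 41.3 and 31.9 CPM (log2 fold change 1.21, SE 0.17, adjusted p = 0.000689 by edgeR), and Uqcrc2, a core protein of complex III, differed by 1.14 (adjusted p = 0.00113 by edgeR). In none of these 3 genes did the classes overlap.

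Transcript length moved with this split. The 42 tested OXPHOS genes with transcripts of up to 1000 bases had a median of -0.47 with 20 lower and 2 higher, and the 35 longer ones had a median of 0.22 with 5 lower and 7 higher. The same was seen across the genome, where the median of genes with transcripts up to 500 bases was -0.38 (10.8% lower and 1.99% higher), between 500 and 1000 bases -0.21, between 1000 and 2000 bases 0.17, between 2000 and 4000 bases 0.03 and above 4000 bases -0.09. With offsets for transcript length and GC content, chosen after the data had been seen, the OXPHOS median was -0.16 and 879 genes were higher and 636 lower over the genome. The part of library construction in this length pattern was not tested.

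**Figure D3:**
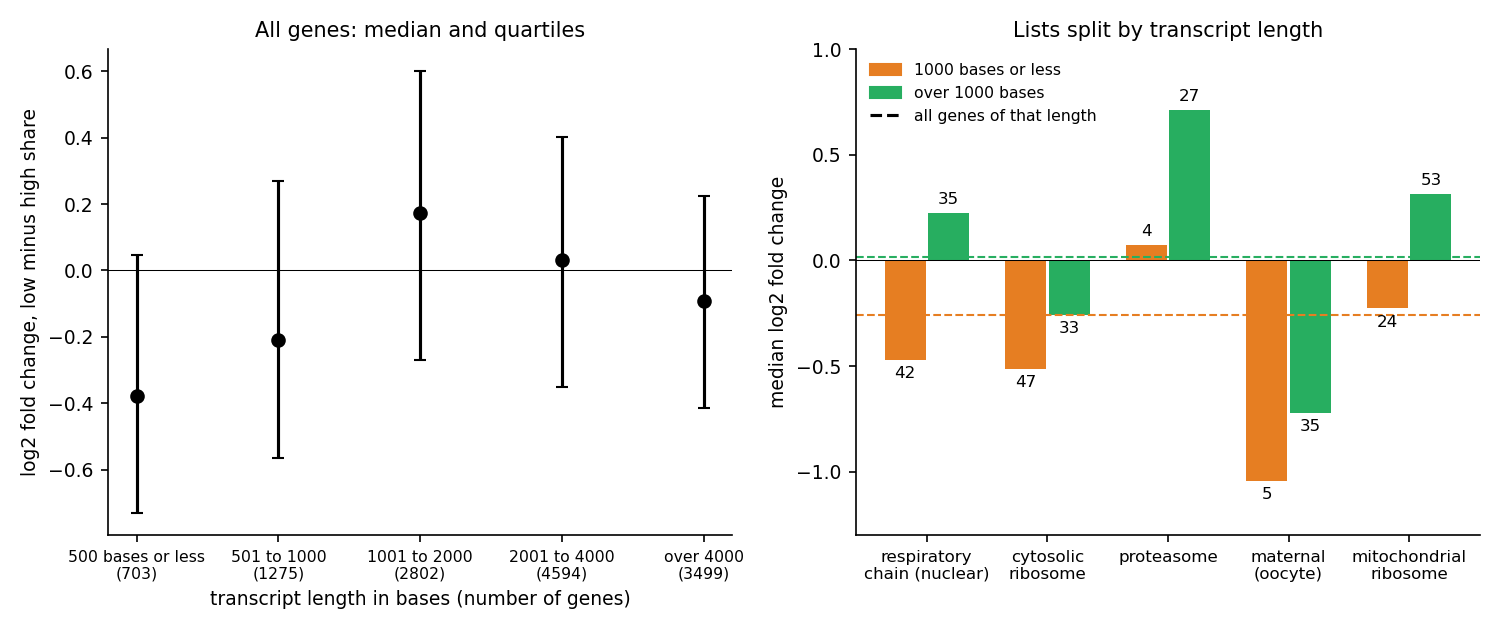
Left, median log2 fold change (low-share minus high-share) of all tested nuclear genes in 5 bins of transcript length in bases, with bars from the lower to the upper quartile. Right, list medians for transcripts up to 1000 bases and longer, with the number of genes on each bar and dashed lines for all genes of that length. The left medians run from -0.38 in the shortest bin to 0.17 between 1000 and 2000 bases, and in all 5 lists the shorter members have the lower median.

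Genes that feed and run the tricarboxylic acid (TCA) cycle were higher where they were called. Of 27 listed genes 24 were tested, 8 were higher (33.3%, against 7.72% of all tested genes) and 0 lower, with a median of 0.41 against -0.02 for all genes. The cycle enzymes had 6 of 14 higher (median 0.49), and pyruvate entry 2 of 10 (median 0.31). Mdh2, the mitochondrial malate dehydrogenase, was at 331, 355 and 322 CPM in the low-share and 172, 119.6, 155 and 126 CPM in the high-share libraries (log2 fold change 1.25, SE 0.16, adjusted p = 0.000451 by edgeR). Pdhb, the beta subunit of the pyruvate dehydrogenase that turns pyruvate into acetyl-CoA, was at 274, 345 and 338 against 187, 143, 149.7 and 175 CPM (log2 fold change 0.95, SE 0.15, adjusted p = 0.00158 by edgeR), and Suclg1, of succinyl-CoA synthetase, was higher as well (0.80, adjusted p = 0.0059 by edgeR). The classes did not overlap for Mdh2 or Pdhb. The others called were Pdha1, Mdh1 and the 3 subunits of the NAD-dependent isocitrate dehydrogenase, Idh3a, Idh3b and Idh3g. The number higher was 4 without Nr5a2 KD replicate 3 or dKD replicate 4, and 5 without dKD replicate 2, where 1 was lower. With the length and GC offsets 5 were higher and 0 lower, and the median was 0.24.

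Fatty acid oxidation, which yields acetyl-CoA from stored lipid, had 5 of 18 tested genes higher (27.8%, against 7.72% of all tested genes) and 0 lower (20 listed, median 0.25). Acadm, the medium-chain acyl-CoA dehydrogenase, was at 568, 561 and 568 CPM in the low-share libraries and 301, 312, 243 and 310.1 CPM in the high-share ones (log2 fold change 0.99, SE 0.13, adjusted p = 0.000586 by edgeR). Etfa and Etfb, the 2 subunits of the flavoprotein that passes electrons on from that enzyme, were higher by 1.03 and 0.83 (adjusted p = 0.00188 and 0.00498 by edgeR), with Slc25a20 and Acadl as the remaining members. The number higher was 3 without dKD replicate 1, dKD replicate 3 or dKD replicate 4. With the length and GC offsets 3 were higher and 1 lower, and the median was 0.15.

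Glycolysis had no common direction, with 3 of 17 tested genes (22 listed) higher (17.6%, against 7.72% of all tested genes), 2 lower (11.8%, against 5.19%) and a median of -0.10. With ERCC scaling 6 were higher and 1 lower, with a median of 0.52. Of all tested genes 34.8% were then higher and 0.427% lower, with a median of 0.60. Without Nr5a2 KD replicate 3, 1 was higher and 1 lower, 1 was lower without dKD replicate 2 or 3, and the median lay nearer 0 without dKD replicate 1 (0.0029), 2 (-0.023) or 4 (-0.00041). Slc16a1, which encodes the monocarboxylate transporter MCT1 that carries pyruvate and lactate, was at 23.3, 16.0 and 16.8 CPM in the low-share and 43.1, 50.1, 43.2 and 75.9 CPM in the high-share libraries (log2 fold change -1.49, SE 0.24, adjusted p = 0.00165 by edgeR). The classes were separate, but the controls (19.1 and 18.7 CPM) and Klf5 KD (10.7, 13.3 and 14.5 CPM) lay with or below the low-share class. Pgam1, a phosphoglycerate mutase, was higher by 1.39 (adjusted p = 0.00459 by edgeR). Eno1 (enolase, 1.65), Aldoa (aldolase, 0.81) and the lactate dehydrogenase subunit Ldhb (-0.89) also passed. Each of these last 3 lost its call without at least 1 library. Without Nr5a2 KD replicate 3 they were at 1.85, 0.92 and -0.89, without dKD replicate 3 Eno1 and Ldhb were at 1.55 and -0.71, without dKD replicate 4 Aldoa was at 0.72, and Ldhb was at -0.58 without dKD replicate 2 and -0.83 without Nr5a2 KD replicate 1. Glycolytic genes have many processed pseudogenes, and reads shared with them had not been counted.

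The 18 tested amino acid and one-carbon genes had a median of -0.0032, or 0.62 with ERCC scaling. Antioxidant genes, with 2 of 22 higher and 2 lower (9.09% each, against 7.72 and 5.19% of all tested genes) and a median of -0.11, had their 4 calls among the peroxiredoxins, enzymes that reduce peroxides. With ERCC scaling 9 antioxidant genes were higher and 0 lower, with a median of 0.49. Of all tested genes 34.8% were then higher and 0.427% lower, with a median of 0.60. Without any 1 of the dKD libraries 1 antioxidant gene was lower, and the median was 0.13 without Nr5a2 KD replicate 3. Prdx6 was at 364, 471 and 374 against 193, 182, 159 and 176 CPM (log2 fold change 1.20, SE 0.14, adjusted p = 0.000431 by edgeR) and the mitochondrial Prdx3 was higher (0.90, adjusted p = 0.00164 by edgeR). Prdx1, a cytosolic form, was at 939, 1087 and 818 against 2019.5, 1827, 1578 and 2194 CPM (log2 fold change -0.99, SE 0.15, adjusted p = 0.0013 by edgeR). With ERCC scaling Prdx1 was at -0.37 and did not pass. Prdx4, of the endoplasmic reticulum, was lower (-0.58, adjusted p = 0.0237 by edgeR), but lost the call without dKD replicates 1 (-0.59), 2 (-0.47), 3 (-0.57) or 4 (-0.48) and was at 0.05 with ERCC scaling. In cholesterol synthesis 2 of 23 genes (8.7%, near the 7.72% of all tested genes) were higher and 0 lower (median -0.07, or 0.56 with ERCC scaling), Fdps, the farnesyl diphosphate synthase (1.06, adjusted p = 0.000736 by edgeR), and Ebp, a sterol isomerase (0.79, adjusted p = 0.0449 by edgeR). Ebp lost the call without Nr5a2 KD replicate 1 (0.66), 2 (0.75) or 3 (0.38) or dKD replicate 2 (0.71) or 4 (0.84). Without dKD replicate 1 the cholesterol genes had 4 higher and 1 lower, and their median was 0.20 without Nr5a2 KD replicate 3.

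The nuclear genes that build the mitochondrial gene expression machinery were mostly higher where called. Of the 77 mitochondrial ribosomal protein genes, all tested, 22 were higher (28.6%, against 7.72% of all tested genes) and 5 lower (6.49%, near the 5.19% of all), with a median of 0.21. Both subunits took part, with 12 of 48 large subunit genes and 10 of 29 small subunit genes higher. Mrps18b was at 258, 297 and 256 CPM in the low-share and 131, 82.2, 106 and 85.0 CPM in the high-share libraries (log2 fold change 1.44, SE 0.18, adjusted p = 0.000439 by edgeR). Mrpl44 and Mrpl49 were higher by 0.93 and 0.93 (adjusted p = 0.00131 and 0.00222 by edgeR). The 24 members with transcripts up to 1000 bases had a median of -0.23 and the 53 longer ones of 0.32. The number higher was 14 without dKD replicate 3 or dKD replicate 4, and the number lower was 0 without Nr5a2 KD replicate 3, 2 without dKD replicate 1 and 1 without dKD replicate 4.

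Replication, transcription and RNA handling genes of the mitochondrion gave few calls, 4 higher and 2 lower of 31 tested (12.9 and 6.45%, against 7.72 and 5.19% of all tested genes, 35 listed, median 0.14). Mgme1, an exonuclease of mitochondrial DNA, was higher (0.83, adjusted p = 0.0101 by edgeR). Gabpb1, a subunit of the nuclear respiratory factor GABP (0.50), Mtpap, the mitochondrial poly(A) polymerase (0.70), and on the lower side Slirp, an RNA-binding protein that stabilises mitochondrial mRNAs (-0.68), and the transcription factor Yy1 (-0.66) also passed. Without Nr5a2 KD replicate 3 none of the 31 was called by edgeR, and Mgme1, Gabpb1, Mtpap, Slirp and Yy1 were then at 0.94, 0.50, 0.54, -0.74 and -0.64. Without dKD replicate 3 or dKD replicate 4, 1 was higher and 1 lower, and without dKD replicate 1, 2 were higher and 1 lower. In protein import and mitochondrial dynamics 8 of 40 were higher and 3 lower (20.0 and 7.5%, against 7.72 and 5.19% of all tested genes, median 0.08), with 5 and 0 called without Nr5a2 KD replicate 3, 4 and 4 without dKD replicate 3, 6 and 1 without dKD replicate 4, and 9 and 5 without Nr5a2 KD replicate 1. Phb2, a prohibitin of the inner membrane, was higher (1.03, adjusted p = 0.0018 by edgeR), and Timm50, a receptor of the inner membrane translocase, was at 125, 167 and 141 against 95.1, 83.4, 82.0 and 81.5 CPM (log2 fold change 0.76, SE 0.15, adjusted p = 0.00582 by edgeR). The small Timm8b, Tomm7 and Tomm5 were lower (-0.76, -0.58 and -0.55), and none of them was called without Nr5a2 KD replicate 3 (-0.68, -0.57 and -0.51). Tomm7 and Tomm5 each lost the call in 3 of the 7 fits that left out a library. With ERCC scaling Timm8b, Tomm7 and Tomm5 were at -0.15, 0.03 and 0.08, and none of them passed.

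**Figure D4:**
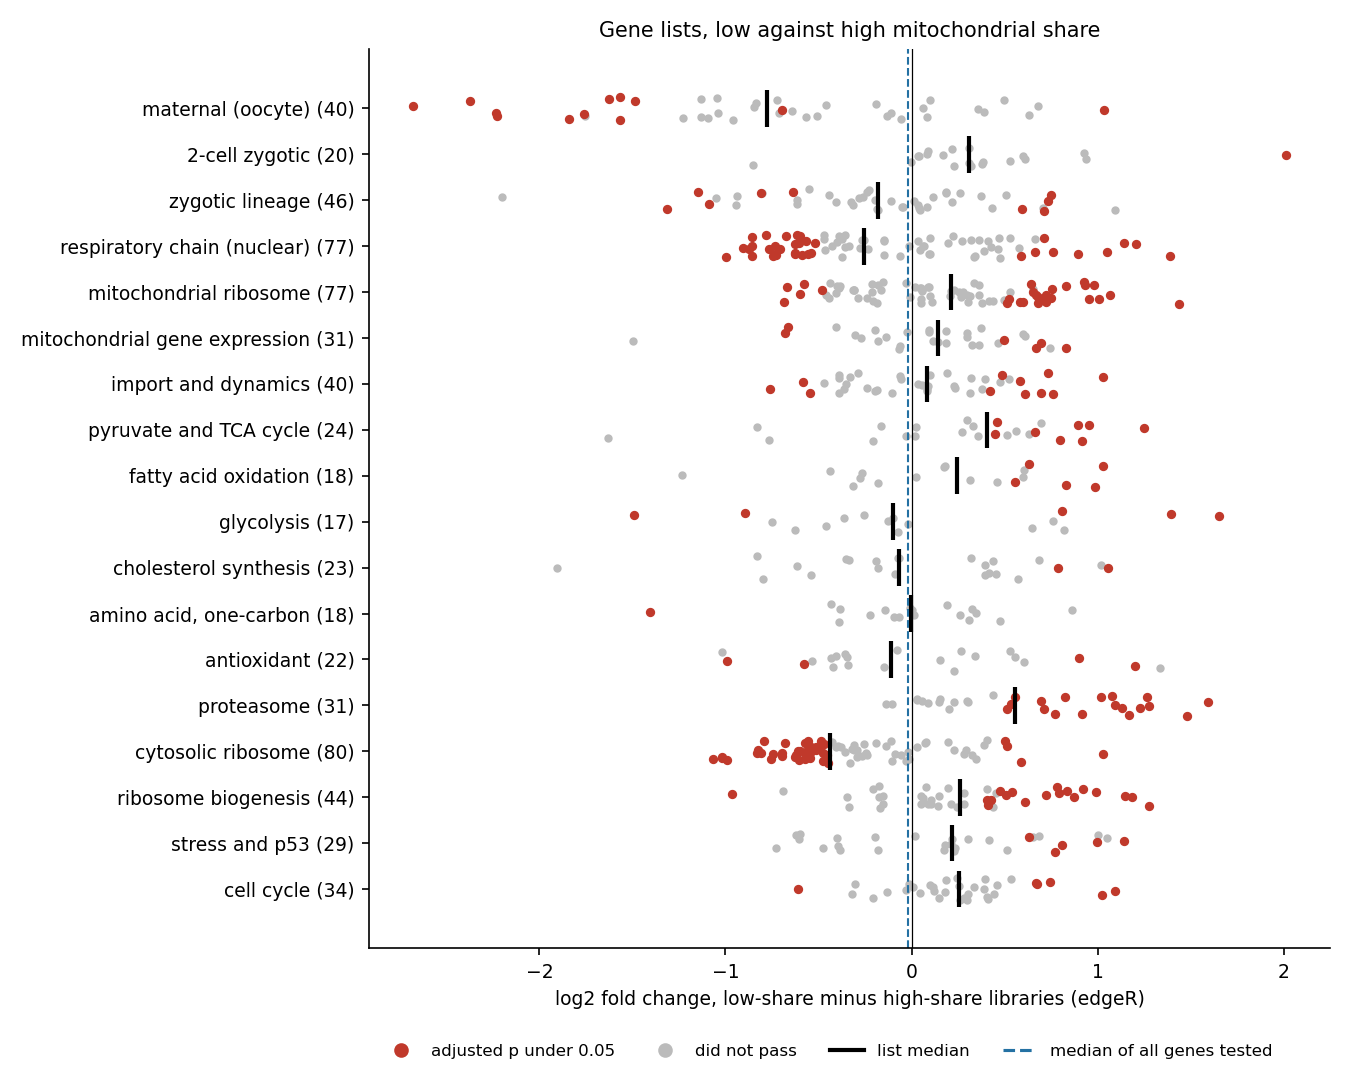
Log2 fold change (low-share minus high-share) of every tested member of each gene list, 1 point per gene, with the list median as a black bar, genes of adjusted p under 0.05 in red and the median of all tested genes as a dashed line. Proteasome (0.56) and TCA cycle genes (0.41) have the highest medians and maternal genes (-0.78) the lowest.

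The proteasome, the complex that degrades ubiquitinated proteins, was the list with the largest share of members called higher. All 31 genes were tested, 18 were higher (58.1%) and 0 lower, 20 had all low-share libraries above all high-share ones, and the median was 0.56. Over the genome 7.72% of genes were called higher and 13.9% were without overlap on that side. The 19S regulatory particle, which recognises and unfolds substrates, had 14 of 17 genes higher with a median of 1.08, of which the ATPase genes Psmc had 5 of 6 (1.27) and the Psmd genes 9 of 11 (0.92). The 20S core, which holds the proteolytic sites, had 4 of 14 higher with a median of 0.18. The number called without any 1 library was between 14 and 20. Only 4 of the 31 had transcripts up to 1000 bases (median 0.07), the other 27 had a median of 0.71, and the list median was 0.53 with the length and GC offsets.

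Psmc5 (chromosome 11 of GRCm38 from 106256154 to 106263120), which encodes an ATPase of the base of the regulatory particle, was at 417, 480.3 and 384 CPM in the low-share and 157, 120.2, 142 and 148 CPM in the high-share libraries, a 3.02-fold difference (log2 fold change 1.60, SE 0.14, adjusted p = 0.000121 by edgeR). Psmc1, another of these ATPases, was at 497, 512 and 453 against 196, 188, 205 and 219 CPM (log2 fold change 1.27, SE 0.12, adjusted p = 0.000156 by edgeR), and Psmd14, the deubiquitinase of the lid, at 719, 722 and 641 against 331, 286, 313 and 274 CPM (log2 fold change 1.23, SE 0.13, adjusted p = 0.000237 by edgeR). In each of these the classes were separate and the values within a class were close. The controls, at 161 and 139 CPM of Psmc5 and 215 and 178 CPM of Psmc1, lay with the high-share libraries.

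Since these genes were called higher together, the 250 bases before their RefSeq transcription starts (GRCm38.p6) were searched on either strand for 4 motifs, the ETS-type core CCGGAAG, the antioxidant response element core TGACNNNGC, the CCAAT box and a nuclear respiratory factor core. Windows of 3 genes that hold the first are shown with the match in capitals, read 5′ to 3′ on the strand of the gene. They are Psmc1 (chr12:100109952-100110201, plus strand), Psmc2 (chr5:21785025-21785274, plus strand) and Psmd4 (chr3:95042615-95042864, minus strand).
Psmc1: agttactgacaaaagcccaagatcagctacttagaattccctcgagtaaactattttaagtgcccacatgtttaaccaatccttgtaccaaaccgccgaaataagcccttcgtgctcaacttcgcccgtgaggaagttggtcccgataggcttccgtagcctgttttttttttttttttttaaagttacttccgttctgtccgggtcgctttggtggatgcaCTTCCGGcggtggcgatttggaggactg
Psmc2: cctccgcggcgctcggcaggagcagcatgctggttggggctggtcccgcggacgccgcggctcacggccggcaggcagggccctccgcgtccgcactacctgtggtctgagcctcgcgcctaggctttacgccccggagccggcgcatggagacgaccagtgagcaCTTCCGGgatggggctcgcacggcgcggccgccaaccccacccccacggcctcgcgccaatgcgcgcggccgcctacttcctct
Psmd4: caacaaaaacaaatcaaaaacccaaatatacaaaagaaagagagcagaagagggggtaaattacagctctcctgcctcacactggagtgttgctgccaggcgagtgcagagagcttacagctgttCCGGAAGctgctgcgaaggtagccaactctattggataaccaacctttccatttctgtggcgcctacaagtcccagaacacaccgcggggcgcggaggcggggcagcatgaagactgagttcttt
The match lay 22 to 28 bases before the RefSeq start in Psmc1 and 78 to 84 in Psmc2, both on the opposite strand, and 119 to 125 before it in Psmd4. In the annotation used for counting, Psmc1 begins at 100110154, so by that annotation its match lies inside the gene. Of the 16 called proteasome genes with a window, 7 (43.8%) held the core: Psmc1, Psmc2, Psmd2, Psmd4, Psmd6, Psmd11 and Psmd12. Over all 25 proteasome genes with a window it was in 8 (32.0%). Of all 27025 RefSeq windows of this length 1906 (7.05%) held it, and of the 8913 windows of tested genes 1361 (15.3%). Among genes called higher 148 of 731 (20.2%) held it and among those called lower 78 of 462 (16.9%), while cytosolic ribosomal protein genes, described next, had it in 18 of 60 (30.0%). It was in 2 of 19 mitochondrial ribosome genes called higher (10.5%) and in 0 of 8 OXPHOS genes called higher. The other motifs were in called proteasome genes at shares near or below those of tested genes, with the CCAAT box in 6 of 16 (37.5%, against 37.2%), the antioxidant response element core in 1 of 16 (6.25%, against 12.2%) and the nuclear respiratory factor core in 0 of 16 (against 1.66%). The ETS core was thus found in lists that were mostly higher and in lists that were mostly lower, it was singled out after these shares had been seen, and a match is a description of these letters and not of binding.

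Cytosolic ribosomal protein genes had the largest number of lower members of any list with nuclear scaling, and none with ERCC scaling. All 80 were tested, 39 were lower (48.8%, against 5.19% of all tested genes) and 4 higher (5.0%, against 7.72%), with a median of -0.44. With ERCC scaling 22 were higher and 0 lower, where 34.8% of all tested genes were higher and 0.427% lower. The list median was then 0.17, above 0 but under the 0.60 of all genes. Rpl39, one of the smallest proteins of the large subunit, was at 1298, 1085 and 1315 CPM in the low-share and 2457, 2809, 2550.1 and 2385 CPM in the high-share libraries (log2 fold change -1.02, SE 0.12, adjusted p = 0.000438 by edgeR). Rps15a was at 591, 674 and 652 against 1371, 1245, 1284 and 1291 CPM (log2 fold change -1.02, SE 0.12, adjusted p = 0.000438 by edgeR), and Rps27 was lower (-1.07, adjusted p = 0.000548 by edgeR). With ERCC scaling these 3 were at -0.39, -0.40 and -0.46 and did not pass. Rpl4, a long ribosomal protein gene, was higher at 1439, 1631 and 1473 against 850.2, 648, 771 and 716 CPM (log2 fold change 1.03, SE 0.13, adjusted p = 0.000576 by edgeR). The 47 genes with transcripts up to 1000 bases had 29 lower and a median of -0.51, and the 33 longer ones had 10 lower and a median of -0.26. The number lower was 10 without Nr5a2 KD replicate 3 and 21 without dKD replicate 4, and from 27 to 41 without any other library. The number higher was 9 without Nr5a2 KD replicate 1, 2 without dKD replicate 1, and 1 without dKD replicate 2 or dKD replicate 3. These genes have many processed pseudogenes with shared reads.

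Genes of ribosome assembly went in the other direction. Of 44, all tested, 17 were higher (38.6%, against 7.72% of all tested genes) and 1 lower with a median of 0.26. Ncl, the nucleolar protein nucleolin, was at 836, 816 and 674 against 428, 306, 312 and 383 CPM (log2 fold change 1.15, SE 0.15, adjusted p = 0.000595 by edgeR), and the small subunit processome members Dcaf13 and Imp4 were higher by 1.28 and 1.18 (adjusted p = 0.000431 and 0.000576 by edgeR). Nop10, a small protein of the pseudouridylation complex, was lower (-0.97, adjusted p = 0.000951 by edgeR). The number higher was 8 without Nr5a2 KD replicate 3. Of 29 tested stress and p53 genes 5 were higher (17.2%, against 7.72% of all tested genes, and 3 without Nr5a2 KD replicate 3) and 0 lower, with a median of 0.21 that was 0.021 without Nr5a2 KD replicate 3, 0.090 without Nr5a2 KD replicate 1 and 0.37 without dKD replicate 1. Within them, 4 of 9 heat shock genes were higher (median 0.51), with Hsp90ab1, a cytosolic HSP90, at 1724, 1683 and 1673 against 1004, 671, 780.3 and 689 CPM (log2 fold change 1.14, SE 0.15, adjusted p = 0.000586 by edgeR) and the constitutive chaperone Hspa8 higher (1.00, adjusted p = 0.00149 by edgeR). Of 11 p53 targets 1 was higher, Bax, an activator of apoptosis (0.77, adjusted p = 0.00877 by edgeR), which was not called without Nr5a2 KD replicate 3 (0.60). None of 9 genes of the integrated stress response was called by edgeR (median -0.18).

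Cell cycle genes had 5 of 34 higher (14.7%, against 7.72% of all tested genes) and 1 lower (2.94%, against 5.19%), with a median of 0.26. Ccnb1, the mitotic cyclin B1, was at 3765, 3754 and 3644 CPM in the low-share and 1994, 1611, 1772 and 1999.5 CPM in the high-share libraries (log2 fold change 1.02, SE 0.12, adjusted p = 0.000438 by edgeR), and Aurka, a kinase of the mitotic spindle, was higher (1.1, adjusted p = 0.000575 by edgeR). Both classes were tight for Ccnb1. Cdc20, a mitotic activator of the anaphase-promoting complex, passed (0.67, adjusted p = 0.00464 by edgeR) but not without Nr5a2 KD replicate 3 (0.59). Ccne2, cyclin E2, was lower (-0.61, adjusted p = 0.0444 by edgeR). It lost that call without Nr5a2 KD replicate 1 (-0.59) or 3 (-0.68) or without dKD replicate 1 (-0.54), 2 (-0.63), 3 (-0.63) or 4 (-0.54), and the number of members higher was 2 without Nr5a2 KD replicate 3.

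The Klf5 KD and control libraries were not used in any of these calls, and their shares ran from 4.41 to 13.2%. In these 5 libraries alone, with the treatment as a term and the share as a number, 181 genes (1.4%) were higher and 71 (0.551%) lower as the share fell, in a fit chosen after the data had been seen. Of the 995 genes higher in the low-share Nr5a2-depleted libraries 134 (13.5%, and 74.0% of the 181) were called higher here too, and of the 669 lower ones 16 (2.39%, and 22.5% of the 71). Their fold changes had the same sign here for 888 of the 995 (89.2%) and 555 of the 669 (83.0%), where 65.2% of all tested genes had the same sign. The 2 controls, at 12.9 and 13.2%, add almost no range of share, so the slope rests on the 3 Klf5 KD libraries. In those the share rose with the library number, so share and library order cannot be told apart in this slope. In Klf5 KD replicate 1 minus the other Klf5 KD libraries, 879 of the 995 (88.3%) but only 453 of the 669 (67.7%) had the same sign, against 61.9% of all tested genes. The lowest share among the 5, 4.41%, was that of Klf5 KD replicate 1.

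Proteasome genes went with the share in these libraries as well. All 31 had a positive value, 11 were called and the median was 0.84 per the same difference in share, with 9 of 17 regulatory particle genes called (median 1.02) and 2 of 14 core genes (0.52). Psmc5 was at 672, 288 and 142 CPM in Klf5 KD replicates 1 to 3, whose shares were 4.41, 8.28 and 11.8%, and at 161 and 139 CPM in the controls. Mdh2 was at 599, 331 and 170.5 CPM in the same Klf5 KD libraries, Ndufa9 at 322, 128 and 81.8 CPM and Acadm at 566, 391 and 271 CPM. In all 4 genes the Klf5 KD library with the lowest share was the highest, and the one with the highest share was the lowest. The TCA median was 0.54 and the mitochondrial ribosome median 0.30.

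Several lists had other medians there. Glycolysis was at 0.56 against -0.10, antioxidant genes at 0.27 against -0.11 and stress and p53 genes at -0.23 against 0.21. The maternal list had a median of 0.01 in the Klf5 KD and control libraries, against -0.78 in the Nr5a2-depleted ones. The OXPHOS list was at 0.05 against -0.26, and the cytosolic ribosome list at -0.08 against -0.44. Omt2b was at 186, 137 and 120.5 CPM and Cox7b at 253, 171 and 173 CPM in Klf5 KD replicates 1 to 3, where the library with the lowest share had the highest value of both. Whether the Nr5a2-depleted libraries differ from the others in these slopes was not tested. The control mean was nearer to the high-share than to the low-share mean for 774 of the 995 higher genes (77.8%) and 550 of the 669 lower ones (82.2%), against 61.5% of all tested genes.

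**Figure D5:**
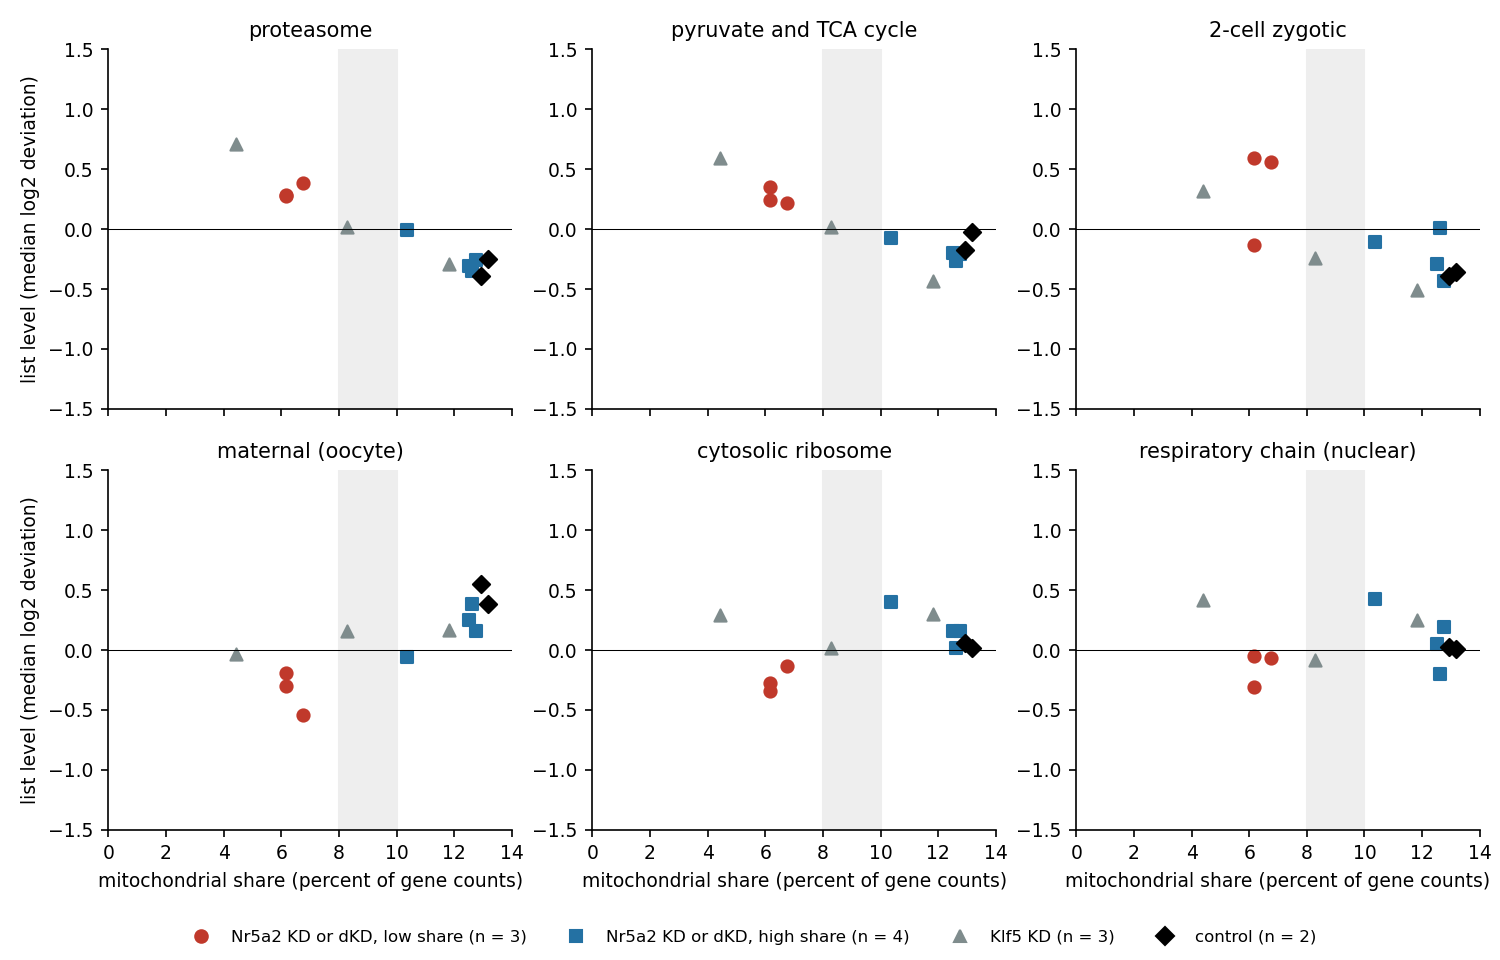
Median level of 6 gene lists in each of the 12 libraries (log2 deviation of each gene from its mean over the 7 Nr5a2-depleted libraries) against mitochondrial share (percent of gene counts), 1 point per library, with the gap from 8 to 10% shaded. Proteasome genes are highest in Klf5 KD replicate 1 (0.71) and the low-share libraries (0.28 to 0.38), and maternal genes are lowest in the 3 low-share libraries (-0.54 to -0.19).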

How the data were processed

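RNA was measured in 12 libraries of 10 pooled 8-cell embryos. Per the labels and the study's methods, the authors made SMART-seq v4 and Nextera XT libraries with ERCC RNA added at lysis, sequenced them on instruments that the labels give as NovaSeq or AVITI, without assigning libraries, and the methods as NovaSeq alone, trimmed reads with Trim Galore (0.6.2), aligned them to GRCm38 with STAR and counted exons with featureCounts (2.0.1), dividing a read that overlapped several genes and leaving out multi-mapped reads. The deposited values are therefore estimated counts that need not be whole, without normalization. They were rounded to whole numbers for the tests.

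The mitochondrial share was the percent of gene counts on the mitochondrial chromosome. Nuclear genes of the 7 Nr5a2-depleted libraries were kept by filterByExpr (minimum count 10, minimum total 15), scaled by TMM over nuclear counts, and fitted with treatment and share class by edgeR (4.0.16) quasi-likelihood, with Benjamini-Hochberg adjustment and a threshold of 0.05, in R 4.3.3. CPM are counts-per-million over nuclear genes. Single values per library were compared with exact permutation tests (scipy 1.17.1). No overlap means that every low-share library lay on the same side of every high-share library. The Klf5 KD and control libraries were fitted separately with the share as a number, expressed per the difference between the class means. Tested on simulated counts with 200 changed genes, the fit called 119 of them, 45.9% of those changed 2-fold and 75.8% of those changed 4-fold, with 5 false calls and 0 in the wrong direction. Genes named were the siRNA targets and mitochondrial genes, the 8 largest log2 fold changes in each direction among called genes with a symbol, a mean of at least 5 CPM and no overlap (predicted Gm and Rik genes left out), and from each list the 3 tested members with the smallest p in each direction, of which those that passed are mostly given. Btg4, Obox1, Zbed3, Spin1, Oog3, Oas1d, Zfp36l2, Aqp3, Slc34a2, Pou5f1 and Nanog were named after their values had been seen, as were the further genes listed by symbol alone. The share classes and the gene lists were chosen with earlier results of these data known. Alternatives were other scalings (DESeq2 1.42.0 size factors, total counts, ERCC counts), DESeq2's test, other filters and terms, each treatment alone, and leaving out each library. One gene that the naming rule selects is not reported here.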

Additional observations from a re-analysis of the deposited data

Results flagged for a closer look

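In the 4 high-share libraries, the library farthest from the others was set against the whole range of the class, for 148 measures, and a gap above Dixon's critical value for 4 samples was marked. Chance marks about 1 in 20 such groups, and 6 were marked here. The mitochondrial share and its parts, which chose the class, were left out. Nr5a2 KD replicate 1 stood apart in Cnp (gap ratio 0.956, 4.62 CPM against 2.49 to 2.58), Timm50 (0.86, 95.1 CPM against 81.5 to 83.4) and Gstm1, a glutathione transferase (0.923, 6.03 CPM against 1.52 to 1.87). dKD replicate 1 was low in Acadm (0.845, 243 CPM against 301 to 312) and in Srebf2, the sterol regulator (0.96, 1.68 CPM against 4.26 to 4.36). dKD replicate 2 was high in Padi6, a subcortical maternal complex gene (0.89, 15.6 CPM against 10.8 to 11.3). In Cnp, Timm50 and Gstm1 the library that stood apart lay on the side of the low-share class, whose values were 9.77 to 14.4, 125 to 167 and 3.96 to 10.3 CPM. Gstm1, Srebf2 and Padi6 had not passed between the classes by edgeR (adjusted p = 0.0698, 0.0592 and 0.266).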

How the results depend on the processing

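No paired analysis was possible because the share class follows the replicate number, so the classes share no number. The counts of 995 genes higher and 669 lower were within 1.5 times of themselves with other nuclear scalings, DESeq2, other filters, no treatment term, a continuous share or all 12 libraries. With ERCC scaling they were 4481 and 55, with a 2-fold minimum 322 and 226, in the dKD libraries alone 483 and 197, and in the Nr5a2 KD libraries alone, where the lone low-share library was assumed to vary like the dKD libraries, 28 and 11. Without 1 library they ranged from 421 to 1073 and from 172 to 692. The interaction was called for 3 genes by DESeq2 and for 6 without a filter on low counts, against 0. With ERCC scaling the list medians were OXPHOS 0.34, mitochondrial gene expression 0.76, mitochondrial ribosome 0.84, import and dynamics 0.68, glycolysis 0.52, TCA 1.03, fatty acid oxidation 0.87, cholesterol 0.56, amino acid 0.62, antioxidant 0.49, maternal -0.16, 2-cell 0.91, lineage 0.44, ribosome biogenesis 0.88, proteasome 1.16, cytosolic ribosome 0.17, stress 0.84 and cell cycle 0.86, and 21 of the 127 named genes changed sign, 17 that had not passed and 4 that had, Mrps33 (0.023), Tomm7 (0.026), Tomm5 (0.081) and Prdx4 (0.045). In the Nr5a2 KD libraries alone they were mitochondrial ribosome 0.064, import and dynamics -0.046, glycolysis -0.032, TCA 0.31, fatty acid oxidation 0.39, cholesterol 0.18, amino acid -0.019, 2-cell -0.031, lineage -0.12, proteasome 0.40, cytosolic ribosome -0.64 and stress 0.40. In the dKD libraries alone they were OXPHOS -0.16, import and dynamics 0.23, cholesterol 0.19, amino acid 0.12, antioxidant 0.11, 2-cell 0.57, cytosolic ribosome -0.28 and stress 0.0090. Over all 12 libraries they were OXPHOS -0.11, import and dynamics 0.017, glycolysis -0.011, fatty acid oxidation 0.33, antioxidant 0.042, cytosolic ribosome -0.26 and stress 0.042, with a minimum mean of 50 normalized counts import and dynamics 0.051, fatty acid oxidation 0.34, cholesterol 0.35, amino acid 0.053, antioxidant -0.39 and 2-cell 0.52, with length and GC offsets OXPHOS -0.16, TCA 0.24, fatty acid oxidation 0.15, cholesterol 0.13, amino acid -0.047, antioxidant -0.17, maternal -0.97 and 2-cell 0.15, and without the treatment term cholesterol 0.095, amino acid 0.0039 and antioxidant -0.045. Without 1 library the medians ranged for OXPHOS -0.36 to -0.12, mitochondrial gene expression 0.15 to 0.20, mitochondrial ribosome 0.14 to 0.29, import and dynamics 0.029 to 0.24, glycolysis -0.15 to 0.0029, TCA 0.37 to 0.43, fatty acid oxidation 0.21 to 0.43, cholesterol -0.057 to 0.20, amino acid -0.052 to 0.13, antioxidant -0.21 to 0.13, maternal -0.88 to -0.59, 2-cell 0.070 to 0.58, lineage -0.19 to -0.10, ribosome biogenesis 0.20 to 0.37, proteasome 0.50 to 0.66, cytosolic ribosome -0.50 to -0.27, stress 0.021 to 0.37 and cell cycle 0.23 to 0.30. Without the ribosomal RNA genes the mitochondrial share was 5.00 and 9.82%. The causes of these changes were not tested. Of the 127 named genes, 85 passed, and 24 lost their call without Nr5a2 KD replicate 3, 23 with ERCC scaling (the 4 above among them), 5 with length and GC offsets and 78 in the Nr5a2 KD libraries alone. In the maternal and 2-cell lists 19 members (1 of them without a matching symbol) and 16 members had no test, and too few counts for a comparison were not told apart from absence. Nr5a2 KD has 1 low-share library.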
